A study of Mus musculus with 11 samples.

Results

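Copy changes that only 1 of 3 libraries carried were mapped in long-term mouse embryonic stem cell (mESC) populations of 2 genotypes, 6 libraries out of the 11 in the series. Ctrl mESC carry a tamoxifen-inducible Cre recombinase, Cre/ERT2, and a histone H2b-Egfp reporter at Rosa26 that stays silent until Cre removes a stop cassette. Tet iTKO mESC carry the same Cre and reporter and are in addition fl/fl at Tet1, Tet2 and Tet3, whose floxed exons the activated Cre excises. Both genotypes were grown in 2i medium on embryonic fibroblast feeders, given 1 µM tamoxifen for 2.5 days and kept as monoclonal populations for 30 days according to the labels, while the study's text gives a longer culture for its long-term clones elsewhere. Live CD326+ cells that expressed GFP and lacked Thy1.2 were sorted before DNA extraction. Each genotype has 3 libraries, called Ctrl 1 to 3 and Tet iTKO 1 to 3 below. The labels do not say whether the 3 libraries of a genotype came from 3 separate clones, so p-values measure only the spread between these libraries, and no age was given.

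TET enzymes oxidise 5-methylcytosine, the DNA mark that DNMT enzymes place, and TET loss in mESC has been studied for its effect on chromosome segregation. A clone grows from a single cell, so a copy change present in that founder, or one that spreads through the culture, lowers or raises the read depth of the affected segment in bulk DNA, while a change carried by scattered single cells averages out. Cultured mESC are known to gain whole chromosomes, trisomy 8 foremost, and to pick up segmental gains and losses.

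Depth was read in bins of about 50 kb, and 47707 of 47924 autosomal bins were used. Log2 relative depth is the log2 of the depth of a bin over the median autosomal bin of its library. The level of a library is its log2 relative depth minus the mean of the other 2 libraries of its genotype, so that differences between genotypes cancel. A private run was at least 5 consecutive bins at which the running median over 5 bins of the log2 ratio was at least 0.25 in size, with 1 sign, against each of the other 2 libraries. That threshold corresponds to a depth 18.9% higher or 15.9% lower. The 6 libraries held 555 to 812 megabases of mapped sequence, with a median autosomal depth of 0.215 to 0.315. No bin had exactly the same depth in 2 libraries of a genotype, and the scaled median absolute deviation of the difference between 2 libraries was 0.122 to 0.136 per bin.

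All private runs lay in Tet iTKO libraries. The 3 Ctrl libraries showed no private run, and neither did Tet iTKO 1. Tet iTKO 2 carried a loss of 8.85 Mb on chromosome 1 and a gain of 2.00 Mb on chromosome 8, and Tet iTKO 3 carried a shallow loss of 0.30 Mb on chromosome 7. The runs held 216 bins in Tet iTKO 2, which is 0.453% of the bins tested, and 6 bins in Tet iTKO 3, which is 0.0126%. The share was 0.0% in each of the other 4 libraries.

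The bases at the borders of the bins are shown for the 2 runs of Tet iTKO 2 and for a pair of bins on chromosome 12 described below, because they place these stretches on the reference. They are from the plus strand of GRCm38 (mm10), 5′ to 3′, with the 15 bases inside the stretch in capitals and 15 bases outside it in lower case. The borders are those of bins, so a true break can lie anywhere in the neighbouring bins, and no sequence was read from the cells.
Left border of the chromosome 1 loss, chr1:23066371-23066400: ggaaggtttattaggAAGAAGTGGACAAAA
Right border of the chromosome 1 loss, chr1:31914528-31914557: AATCTCTGTGGTAGGtaaatgtgtagatat
Left border of the chromosome 8 gain, chr8:95796192-95796221: cacacgacttaacaaATGGCTAAGAAAGGC
Right border of the chromosome 8 gain, chr8:97796491-97796520: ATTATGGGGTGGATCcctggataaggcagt
Left border of the chromosome 12 pair of bins, chr12:34263928-34263957: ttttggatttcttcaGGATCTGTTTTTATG
Right border of the chromosome 12 pair of bins, chr12:34363972-34364001: TTGTGACTTTCTTAAttactcacaggtaca

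**Figure D1:**
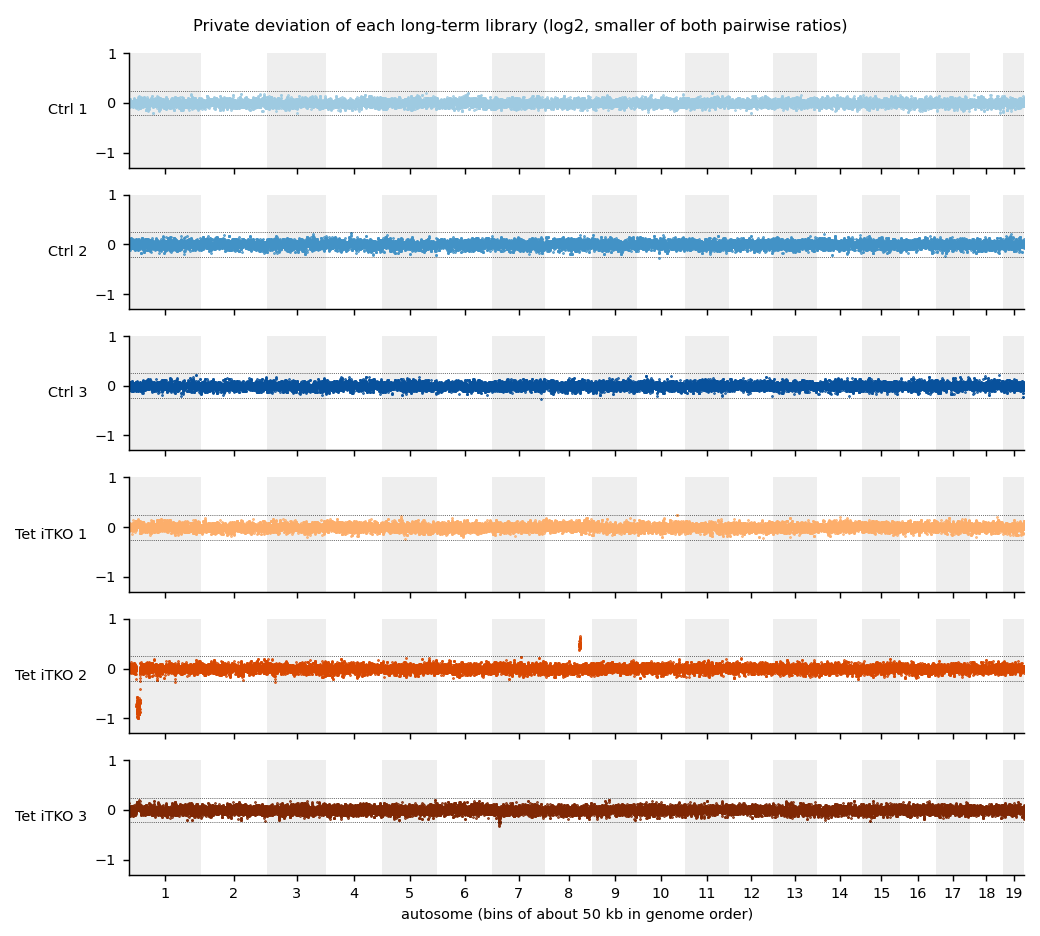
Private deviation of each of the 6 long-term libraries over the 19 autosomes, 1 point per bin of about 50 kb (x axis, genome order). For each pairwise log2 ratio the running median over 5 bins was taken, and the y axis gives the smaller of both medians by size. It is set to 0 where their signs differ. Dotted lines mark the threshold of 0.25. Tet iTKO 2 departs on chromosomes 1 and 8, Tet iTKO 3 dips below the line on chromosome 7, and the 3 Ctrl libraries and Tet iTKO 1 show no run.

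The loss on chromosome 1 spanned 23066386 to 31914542, or 176 bins. Log2 relative depth, as the mean over these bins, was -0.87 in Tet iTKO 2, -0.05 in Tet iTKO 1, -0.03 in Tet iTKO 3, -0.04 in Ctrl 1, -0.02 in Ctrl 2 and -0.05 in Ctrl 3. Tet iTKO 2 alone was low, and the other 5 libraries averaged -0.04 ± 0.012 (SD, n = 5). The level of Tet iTKO 2 was -0.83 (SD over bins 0.197), at -0.82 against Tet iTKO 1 and -0.84 against Tet iTKO 3. All 176 bins were below 0, in a stretch that was chosen for low depth against the same 2 libraries. Depth in the stretch was 43.9% lower than in the other 2 Tet iTKO libraries. In the same library the X chromosome lay 43.1% below the autosomes, so the loss was 102% of the step between X and autosomes. X and autosomes are different sequences, and depth had no GC or mappability correction. The loss in contrast compares the same bins between libraries. Percentages of this step, here and below, are thus a rough scale and do not give a copy number. The level was as deep in the proximal part of the stretch, at -0.84, as in the distal part, at -0.83. The left border was abrupt, with -0.05 in the last bin outside and -0.78 in the first bin inside. The right border ran over 3 bins, from -0.75 through -0.41 to -0.18. The 100 bins on either side were at -0.004 and 0.004.

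Protein-coding genes were sparse there, at 2.15 per Mb against 8.72 per Mb over the autosomes. The 19 annotated protein-coding entries, 2 of which are named Ptp4a1, all lay wholly inside, and the level over their bins ranged from -1.03 for Col19a1 to -0.50 for AC153137.1. Adgrb3, an adhesion G protein-coupled receptor of neurons (chromosome 1, 25067476 to 25829707, minus strand, 16 bins), was the largest. Its log2 relative depth was -0.93 in Tet iTKO 2 and -0.08 and -0.04 in Tet iTKO 1 and 3, and it was -0.03, -0.06 and -0.08 in Ctrl 1 to 3. The 2 libraries of the same genotype and the 3 Ctrl libraries thus overlapped, and Tet iTKO 2 was apart from them. The neighbouring collagen genes Col9a1 and Col19a1 were at levels of -0.999 and -1.03. Metabolic genes included Sdhaf4, an assembly factor of succinate dehydrogenase, at -0.79, and Lmbrd1, which is needed for export of cobalamin from the lysosome, at -0.82. Smap1, a GTPase-activating protein for Arf6, was at -0.84, Phf3, a PHD finger protein that binds RNA polymerase II, at -0.83, and Ptp4a1, a tyrosine phosphatase, at -0.78. The further entries were 4933415F23Rik, Ogfrl1, B3gat2, Fam135a, 4931408C20Rik, Gm597, 4931428L18Rik, Lgsn and Pih1d3. A level in 1 or a few bins is that of the segment and cannot separate neighbouring genes.

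The gain on chromosome 8 spanned 95796207 to 97796505, or 40 bins. Log2 relative depth was 0.49 in Tet iTKO 2, -0.04 in Tet iTKO 1, -0.05 in Tet iTKO 3, -0.03 in Ctrl 1, 0.03 in Ctrl 2 and -0.03 in Ctrl 3. Tet iTKO 2 was the only high library, and the other 5 averaged -0.02 ± 0.030 (SD, n = 5). The level was 0.54 (SD over bins 0.130), which is a depth 45.0% higher, or 104% of the step between X and autosomes taken upwards. For scale, 1 extra copy on top of 2 in every cell is 0.58 in log2. All 40 bins were above 0, in a stretch that was chosen for high depth in the same way, and both borders were abrupt. The bins just outside were at -0.11 and -0.13, and the first and last bin inside at 0.53 and 0.49.

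**Figure D2:**
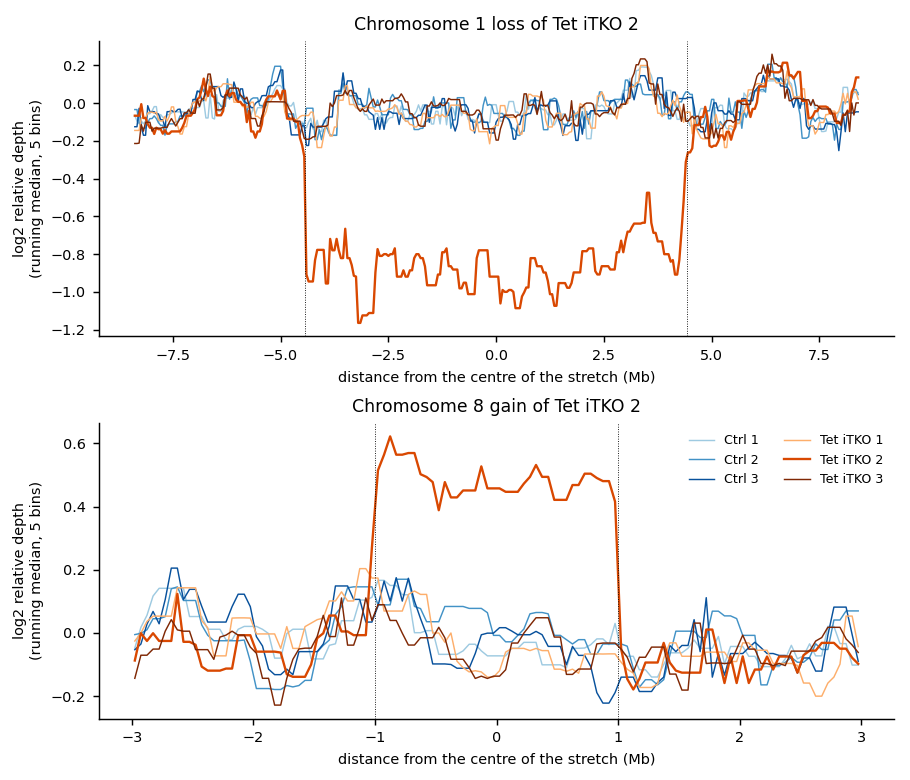
Log2 relative depth (y axis, running median over 5 bins) of the 6 long-term libraries against the distance from the centre of the stretch in Mb (x axis), for the chromosome 1 loss (top) and the chromosome 8 gain (bottom). Dotted lines mark the borders of each run. Tet iTKO 2 drops to a mean of -0.87 over the loss and rises to 0.49 over the gain, and the other 5 libraries run together.

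This stretch was also poor in genes, with 4 protein-coding genes in 2.00 Mb, all at its left end. Got2, the mitochondrial aspartate aminotransferase (95864134 to 95888547, minus strand), lay wholly inside. The log2 relative depth of its bin was 0.75 in Tet iTKO 2, 0.17 and 0.04 in Tet iTKO 1 and 3, and 0.24, 0.09 and 0.17 in Ctrl 1 to 3. Slc38a7, an amino acid transporter, had a level of 0.58, and Sap18b, related to a subunit of the Sin3 corepressor complex, 0.53. Cnot1, the scaffold of the CCR4-NOT deadenylase, was cut by the left border. Of its 49 merged exons 1 reached into the gain, with 0 of 48 coding parts. Its 3 bins had a level of 0.10.

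Single bins were tested with limma, 1 library against the mean of the other 2 of its genotype, with all 6 libraries sharing the estimate of the spread. A bin was called at a Benjamini-Hochberg adjusted p under 0.05 where the library was the odd one out of its 3. Tet iTKO 2 had 216 called bins, 0.453% of 47707. Of these 179 were lower (0.375%) and 37 higher (0.0776%). The other 5 libraries had 0 called bins each. At an unadjusted p under 0.05, limma returned 1425, 2670 and 2127 bins in Ctrl 1 to 3 and 2380, 2773 and 2654 bins in Tet iTKO 1 to 3. These were 2.99, 5.60 and 4.46% of the bins in Ctrl and 4.99, 5.81 and 5.56% in Tet iTKO. A share of 0.05 is what such a cut returns where no bin differs. The called bins clustered, since 171 lay among the 176 of the chromosome 1 loss and 34 among the 40 of the chromosome 8 gain. These 2 stretches were found by their size in the same libraries, so the 2 counts describe how many of their bins passed singly. A further 2 were on chromosome 12, and the remaining 9 were isolated, with levels from -0.49 to 0.49 and limma adjusted p-values from 0.0064 to 0.0334. Among these 9, only the bin on chromosome 4 from 49595116, at 0.49, was above 0. A Benjamini-Hochberg cut of 0.05 allows about that share of the 216 called bins to be false. The isolated bins are therefore not read as copy changes. Of the 216 bins in the runs of Tet iTKO 2, 205 were thus called singly.

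The pair on chromosome 12 covers 34263943 to 34363986 and came out as a private gain of Tet iTKO 2, with limma adjusted p-values of 1.849e-13 and 3.532e-10. The per-library depths showed otherwise. Log2 relative depth over both bins was -1.09 in Tet iTKO 1 and -1.07 in Tet iTKO 3, while Tet iTKO 2 was at -0.05. Ctrl 1 to 3 were at -0.12, -0.23 and 0.01. So 2 libraries were low and the third was at the level of Ctrl, and the pair was a loss shared by Tet iTKO 1 and 3. Their mean was -1.08 against -0.10 ± 0.101 (SD, n = 4) in the other 4 long-term libraries, a depth 49.3% lower. This way of setting them was chosen after the values had been seen and rests on 2 bins, and no test was made of it. The first bin was at -1.04 and -1.07 in Tet iTKO 1 and 3 and the second at -1.13 and -1.07. The bins directly outside were at levels of -0.04 and 0.08 in Tet iTKO 2, so neither shared the change in full.

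Both bins lie inside Hdac9, a class IIa histone deacetylase (34047580 to 34917095, minus strand, 19 bins). The pair covers 11.5% of the gene, with 4 of its 27 merged exons, all 4 of them coding among 25 coding parts. Over all 19 bins of the gene, log2 relative depth was -0.23 and -0.22 in Tet iTKO 1 and 3, -0.12 in Tet iTKO 2 and -0.08, -0.07 and -0.12 in Ctrl 1 to 3. A loss of this size was under the 5 bins that a run requires and appeared only in a scan added later, which asked for at least 2 bins at 0.5 or beyond against each of the other 2 libraries. That scan found 1 further stretch outside the runs, this one, and none in the Ctrl libraries.

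**Figure D3:**
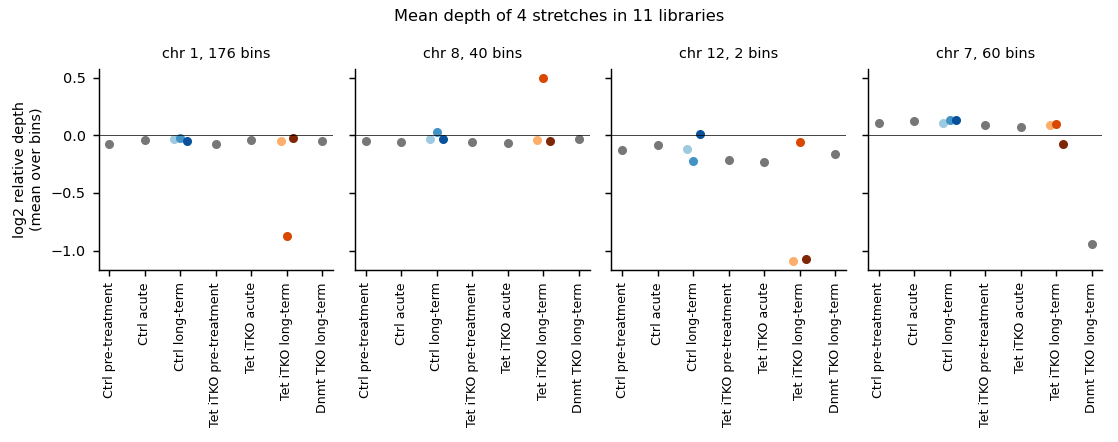
Log2 relative depth, as the mean over the bins of 4 stretches (y axis), in the 11 libraries of the series by group (x axis). Blue points are Ctrl 1 to 3, orange to brown points are Tet iTKO 1 to 3 in order, and grey points are groups of 1 library. Tet iTKO 2 stands alone at -0.87 on chromosome 1 and 0.49 on chromosome 8, Tet iTKO 1 and 3 are low together on chromosome 12, and on chromosome 7 Tet iTKO 3 is at -0.08 and Dnmt TKO at -0.94.

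The 5 libraries outside the 6 were set beside these stretches as single values. They are Ctrl and Tet iTKO cells before treatment and after acute treatment, with 1 library each, and 1 long-term Dnmt TKO library, whose cells lack DNMT enzymes constitutively. On chromosome 1 they ranged from -0.08 to -0.04 and on chromosome 8 from -0.06 to -0.04, so none carried either change. On chromosome 12 they ranged from -0.23 to -0.09. The early libraries had little depth on Y, 0.027 to 0.038 of the autosomal median, while the 6 long-term libraries had 0.463 to 0.558, so culture stage and cell line cannot be told apart between them.

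The loss on chromosome 7 was of another kind. It spanned 22670610 to 22970792, or 6 bins, at a level of -0.28 (SD over bins 0.119), a depth 17.8% lower than in Tet iTKO 1 and 2. Log2 relative depth was -0.11 in Tet iTKO 3, 0.15 and 0.19 in Tet iTKO 1 and 2, and 0.17, 0.16 and 0.26 in Ctrl 1 to 3. Tet iTKO 3 was the lowest and the other 5 were close together. No bin of the run passed limma, with a lowest adjusted p of 0.4692. A wider scan, added later (running median over 21 bins, threshold 0.1, at least 15 bins), extended the stretch to 20371725 to 23421067, which is 3.05 Mb and 60 bins. The same scan found the stretches on chromosomes 1 and 8 again and no stretch in a Ctrl library.

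Over the 60 bins log2 relative depth was -0.08 in Tet iTKO 3, 0.09 and 0.10 in Tet iTKO 1 and 2, and 0.11, 0.13 and 0.13 in Ctrl 1 to 3. Tet iTKO 3 lay below the range of the other 5 libraries, which averaged 0.11 ± 0.018 (SD, n = 5). The level was -0.17 (SD over bins 0.132), with 55 of 60 bins below 0. It amounted to a depth 11.4% lower, or 26.4% of the step between X and autosomes, much shallower than the changes of Tet iTKO 2. limma called 0 of these bins (lowest adjusted p 0.2881), and 21 had an unadjusted p under 0.05. Over all bins of Tet iTKO 3 that share was 5.56%. The 60 bins were chosen for low depth in the same libraries, so the 21 describe the stretch and do not test it. The borders were not sharp. On the left the last bins outside were at levels of -0.33, -0.04 and -0.25, and the first bin inside at 0.03. On the right the last bin inside was at 0.04, as was the first bin outside. Repeats took up 66.0% of the stretch against 33.4% over the usable bins. Dnmt TKO was at -0.94 there, far below all other libraries of the series.

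**Figure D4:**
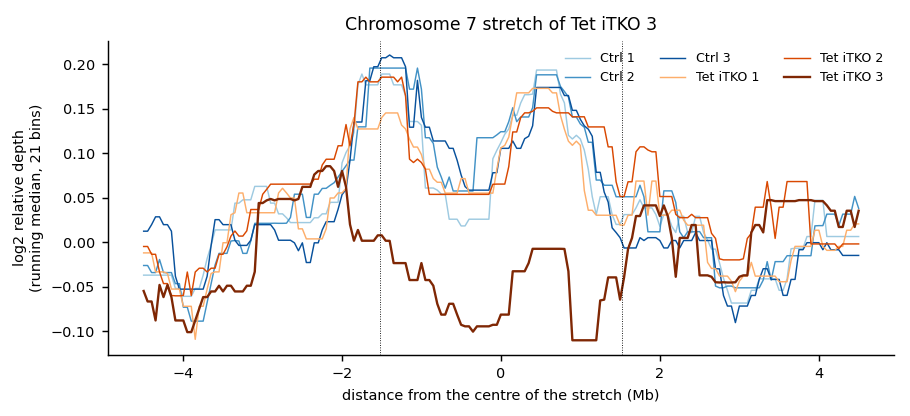
Log2 relative depth (y axis, running median over 21 bins) of the 6 long-term libraries against the distance from the centre of the chromosome 7 stretch in Mb (x axis), with dotted lines at its borders. Tet iTKO 3 averages -0.08 inside the stretch, where the other 5 average 0.11. Over the 100 bins to the left and to the right its level was -0.03 and -0.02.

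Genes in the chromosome 7 stretch were dense and repetitive, at 25.3 per Mb. Of 77 protein-coding genes 45 are named Vmn1r, receptors of the vomeronasal organ that respond to pheromones. Near-identical copies of these genes share reads, so their depth is uncertain copy by copy. In the run itself the members were Vmn1r157, Vmn1r158, Vmn1r159, Vmn1r160, Gm8693 and Gm4567, at levels from -0.39 to -0.07 in Tet iTKO 3. Of the genes in the wider stretch the lowest level, -0.48, was at Vmn1r137, whose log2 relative depth was -0.25 in Tet iTKO 3, 0.24 and 0.22 in Tet iTKO 1 and 2, and 0.14, 0.14 and 0.06 in Ctrl 1 to 3. At the distal border lies Nlrp5, a maternal-effect gene of the subcortical maternal complex (23385889 to 23441922, plus strand). Its level was 0.04 in Tet iTKO 3, and its neighbour Nlrp4e was at -0.11.

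The number of private runs was 0, 0 and 0 in Ctrl 1 to 3 and 0, 2 and 1 in Tet iTKO 1 to 3. The difference was 1 run per library (exact two-sided permutation test, p = 0.4), and 3 libraries against 3 cannot go below 0.1. Private runs covered 0 ± 0 Mb in Ctrl and 3.72 ± 6.18 Mb in Tet iTKO (SD, n = 3, exact permutation p = 0.4). With Tet iTKO 2 left out of the mean the difference was 0.1501 Mb, so nearly all of it rested on that library. Private bins gave a difference of 0.151 percentage points (exact permutation p = 1), which was -0.000699 without Tet iTKO 2. A difference between the genotypes was thus not detectable with these libraries, and the numbers do not show that the genotypes are alike. The noise of the level was 0.106, 0.117 and 0.112 per bin in Ctrl 1 to 3 and 0.113, 0.115 and 0.116 in Tet iTKO 1 to 3 (difference 0.0030, exact permutation p = 0.6). That difference was 7.09e-05 without Ctrl 1, 0.0057 without Ctrl 2 and 0.0086 with the SD in place of the scaled median absolute deviation. Outside the runs, the largest running median reached 0.211, 0.274 and 0.257 in Ctrl and 0.248, 0.277 and 0.225 in Tet iTKO, without 5 bins in a row.

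Weaker changes over long stretches were sought in 475 blocks of 100 bins, about 5 Mb each, called where the mean log2 ratio was at least 0.05 with 1 sign against both other libraries. This is a depth 3.53% higher. Tet iTKO 2 had 3 called blocks (0.632%) and Tet iTKO 3 had 1 (0.211%), and the other 4 libraries had 0 (0.0%). All 4 blocks overlapped the stretches on chromosomes 1, 8 and 7.

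Whole autosomes differed little between libraries of a genotype. The median level of an autosome lay between -0.009 and 0.0092 in the 3 Ctrl libraries and between -0.0153 and 0.0227 in the 3 Tet iTKO libraries. The highest corresponds to 1.58% more depth. The SD over the 19 autosomes was 0.0040 ± 0.0009 in Ctrl and 0.0061 ± 0.0013 in Tet iTKO (SD, n = 3). The difference of 0.0022 had an exact permutation p of 0.2, and it was 0.0045 (exact permutation p = 0.1) where an autosome was summarised by the mean over its bins, which takes in the stretches themselves.

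The highest value was that of chromosome 8, the autosome most often gained in cultured mESC. Its median level was 0.0227 in Tet iTKO 1, -0.0153 in Tet iTKO 2 and -0.0040 in Tet iTKO 3, and -0.0020, 0.0092 and -0.00034 in Ctrl 1 to 3. In Tet iTKO 1 the level was above 0 in 24 of the 25 blocks of chromosome 8, with a median block of 0.0230 and a highest of 0.0395. The exception, at -0.0898, holds the gain of Tet iTKO 2, which enters the reference. In Tet iTKO 2 only that block was above 0, in Tet iTKO 3 there were 8 blocks above 0, and in Ctrl 1 to 3 there were 10, 14 and 9. The levels of the 3 libraries of a genotype sum to 0 in each bin, so a high library lowers the other 2. The shift of Tet iTKO 1 was small beside the gain of a full copy, 0.58 in log2, and no test was made of it. Chromosome 6 in Tet iTKO 3 was the next highest, with a median level of 0.0143 and 26 of 29 blocks above 0, against 6 in Tet iTKO 1 and 11 in Tet iTKO 2. In Ctrl 1 to 3 the median level of chromosome 6 was 0.0082, 0.0029 and -0.0062, with 21, 16 and 8 blocks above 0.

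**Figure D5:**
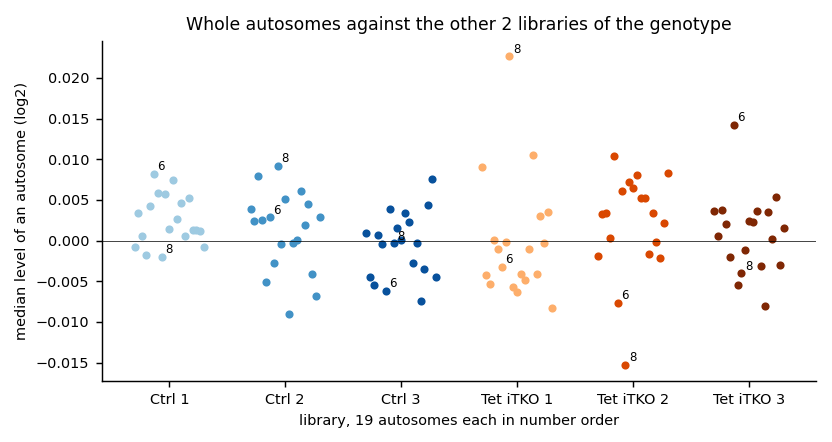
Median level of each of 19 autosomes (y axis, log2) in each of the 6 long-term libraries (x axis), with chromosomes 6 and 8 numbered. Chromosome 8 of Tet iTKO 1 is highest at 0.0227 and chromosome 8 of Tet iTKO 2 lowest at -0.0153, and the autosomes of Ctrl lie between -0.009 and 0.0092.

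Genes with known roles in such changes were looked up from 4 lists with 59 genes in all, each of which was measured. None of 16 pluripotency genes, 18 chromosome segregation genes and 14 genes of DNA damage and growth control overlapped a stretch, and 1 of 11 genes of the TET, DNMT and subcortical maternal complex list did, which was Nlrp5. Of all 20807 autosomal protein-coding genes 0.485% overlapped a stretch, so 1 of 59 genes is a share near the background and says nothing about the lists. Levels over all 59 genes and 6 libraries ranged from -0.31 to 0.29, both at Nanog, which is covered by 1 bin. For Tet1, log2 relative depth was 0.20, 0.25 and 0.20 in Ctrl 1 to 3 and 0.15, 0.23 and 0.14 in Tet iTKO 1 to 3. For Tet2 it was 0.06, 0.18 and 0.01 in Ctrl and 0.13, -0.01 and 0.23 in Tet iTKO, and for Tet3 -0.05, -0.05 and -0.06 in Ctrl and -0.03, 0.05 and 0.03 in Tet iTKO. The groups overlapped for Tet1 and Tet2. For Tet3 all Tet iTKO values lay above the Ctrl values, and such groups of 3 did not overlap, in one direction or the other, at 11.3% of all usable bins. Bins of 50 kb are larger than the floxed exons, so these values do not check the deletion. Khdc3 and Ooep, whose products belong to the subcortical maternal complex, were covered by 1 bin each. Khdc3 was at 0.22, 0.09 and 0.10 in Ctrl and 0.02, 0.25 and 0.04 in Tet iTKO, and Ooep at 0.21, 0.27 and 0.19 in Ctrl and 0.25, 0.19 and 0.19 in Tet iTKO. For both genes the groups overlapped.

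The X chromosome was scanned with the same rule over 3253 bins and gave 0 private runs in each of the 6 libraries.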

How the data were processed

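Bulk genomic DNA had been sequenced at low coverage as single-end reads from PCR-free libraries. The authors mapped trimmed reads of at least 70 bp to mm10 by BWA-mem according to their methods, and Picard MarkDuplicates took out optical duplicates. The submitters' processing notes name BSMAP, which the methods give for bisulfite data. The deposited depth is the mean coverage (a signal) in each of 52958 bins, without scaling or any GC or mappability correction. Counts of reads per bin were not used here. Groups came from the sample labels. Bin ends were checked against GRCm38, and genes came from GENCODE M21.

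Depth was divided by the median autosomal bin of the library and converted to log2. Bins with a mean relative depth outside 0.5 to 1.5 over the 6 long-term libraries were left out (217 bins). Bins were tested with limma 3.58.1 in R 4.3.3 (lmFit, eBayes, two-sided, Benjamini-Hochberg adjustment within a library). Since a library alone has no spread of its own, it was assumed to vary like the others. Single values were compared with exact two-sided permutation tests. Python 3.11.15, numpy 2.4.6, pandas 2.3.3 and statsmodels 0.14.6 were used. The steps were tested on simulated data.

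All runs were named, with every protein-coding gene overlapping a run, or the 30 with the largest overlap where there were more. The members, lists and rules were chosen with earlier results of these data known. Alternatives covered GC correction, smoothing, the summary over bins, thresholds, filters, window size, reference, a replicate block and leaving out each library. The wide scan, the short scan and the setting of Tet iTKO 1 and 3 against the other libraries were chosen after seeing the data. Depth times bin length gives bases, not independent molecules, so no counting interval is given.

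Same-numbered Ctrl and Tet iTKO libraries did not deviate together (correlations 0.0010, -0.0051 and 0.0019), so they were not treated as pairs.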

Additional observations from a re-analysis of the deposited data

How the results depend on the processing

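The chromosome 1 loss and the chromosome 8 gain were found again under all 13 other settings of the run scan, and the chromosome 7 run under 7 of them. Some of these outcomes were fixed in advance. A threshold of 0.15 and a minimum of 3 bins are looser and must return every main run. A minimum of 10 bins must keep the long runs and drop the chromosome 7 run of 6 bins. The wide and short scans were added after seeing the data, so these counts overstate how far the runs were put to the test. The 3 Ctrl libraries had 0 runs under every setting but one: with the median of the other 5 libraries as reference, where differences between genotypes no longer cancel, Ctrl had 13 and Tet iTKO 17. Runs in Tet iTKO numbered 10 at a threshold of 0.15 and 14 in the short scan, which broke long runs into pieces. The 10 included the chromosome 7 stretch in pieces. They also included a 5-bin gain of Tet iTKO 3 on chromosome 1 (23766240 to 24016187), inside the loss of Tet iTKO 2. Further ones lay on chromosomes 2, 4, 13 and 16 and, away from the pair, on chromosome 12. Each of these had 5 bins, the fewest that a run can have. For runs, leaving out a library only dropped it from the sums, and no run was called again without it. The sums of 1 to 3 runs in Tet iTKO and 0 in Ctrl thus follow from the main counts. The difference in length was then 0.1501 to 5.57 Mb. limma called 114 windows of 100 kb in Tet iTKO, as fewer windows were tested. With a replicate block limma called 96 bins in Ctrl and 182 in Tet iTKO. That block makes the estimate for a library the reverse of that for the same-numbered library of the other genotype. Ctrl 2 and Tet iTKO 2 thus shared 186 bins at a limma adjusted p under 0.05. The odd-one-out condition kept 88 and 181 of them. The Ctrl count under the block therefore does not show changes private to Ctrl. Leaving out each library in turn gave 0 to 428 private bins in Tet iTKO and 0 to 1 in Ctrl. The 0 came without Tet iTKO 2, which held all called bins, and the counts of 416 and 428 came with Tet iTKO 2 and 1 other library left, where a change counts in both. The difference was then between -0.000699 and 0.449 percentage points, and it was reversed without Tet iTKO 2. Called blocks numbered 14 in Ctrl and 21 in Tet iTKO at a threshold of 0.03, and 17 and 28 with blocks of 40 bins. With 3 libraries against 3 no exact permutation p can fall below 0.1, so the lack of smaller values is no measure of stability. That p was 0.1 for the spread over autosomes with GC correction and with the mean over bins. It was also 0.1 for the length of runs with the median of the other 5 libraries as reference. The level of the pair on chromosome 12 fell to 0.18, and that of the wide chromosome 7 stretch was -0.19, against the median of the other 5 libraries. The run scan sees only changes of at least 5 bins that move depth by 15.9% downwards or 18.9% upwards.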
